A study of Rattus norvegicus with 18 samples.

Results

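The comparison set bone marrow stromal cells from Sprague-Dawley rats kept on a normal diet (ND) for 4 months against cells from rats kept on it for 1 month. Both groups were chosen by their labels, and their 6 arrays are part of 18. The rats were 6 weeks old when feeding began, and ND was a 100% basal diet, so a later feeding time also means an older animal. Cells were grown from plated whole marrow in low glucose medium with fetal bovine serum, and total RNA was hybridised to Affymetrix rat expression arrays, 3 per group. Sample labels say passage 3 while the description of the series says passage 1. Neither says whether animals were pooled, and no label gives a sex, a batch or a scan date. Other groups used here are ND for 2 months and a high-fat diet (HFD), a basal diet with lard, sucrose and egg yolk powder, for 4 months and for 1 month, each with 3 arrays.

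Marrow mesenchymal stromal cells are adherent fibroblast-like cells that lay down matrix, support blood formation and can become bone, fat or cartilage cells. In culture they carry contractile actin fibres, divide, and make their own cholesterol and fatty acids. Plated whole marrow also contains macrophages, phagocytic blood cells that adhere to plastic, and their RNA is measured together with that of the stromal cells.

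All values are log2 of the deposited intensity unless a ratio is named, and single arrays are given in the order of replicates 1, 2 and 3. The difference, 4 months minus 1 month, was tested in limma over 21729 probe sets, the array's units of measurement, and a probe set passed at an adjusted p under 0.05 (Benjamini-Hochberg). A gene stands for its brightest tested probe set, which gave 11446 named genes. The deposited column of ND 1-month replicate 1 was shifted and was moved into place. That array therefore has no value for 1066 tested probe sets and 882 named genes, and for these 2 ND 1-month arrays stand against 3 ND 4-month arrays. Median intensity lay between 25.4 and 26.8 on the linear scale on the 6 arrays. On the actin control probes, which gauge RNA degradation, the 3' end exceeded the 5' end by 0.50 to 0.66 in ND at 4 months and by 0.48 to 0.51 in ND at 1 month.

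The stromal label held on every array, and so did RNA of macrophages on most of them. Col1a1, a chain of the main bone collagen, read 12.38, 12.43 and 12.04 in ND at 4 months, against 12.44, 12.28 and 12.54 in ND at 1 month. Thy1, a stromal surface protein, read 11.83, 11.73 and 12.02 at 4 months, against 11.99, 11.82 and 12.13 at 1 month. Both genes were high on all 6 arrays and their groups overlapped. Endothelial Pecam1, Kdr and Tek, the progenitor receptor Kit and the neutrophil gene S100a9 lay under the intensity filter. S100a8, the neutrophil partner of S100a9, passed it and read 3.97, 3.15 and 5.04 at 4 months, against 3.30 and 3.09 on the 2 measured 1-month arrays. The granulocyte and mast cell list had 7 of 20 genes tested, all 7 positive, with a median log2 fold change of 0.25. The endothelial list had 9 of 20 genes tested, 5 positive and 4 negative, with a median of 0.09 and a highest value of 1.13. Endothelial genes other than the 3 named thus passed the filter. The macrophage lysosomal protein Cd68 read 9.74, 10.78 and 9.08 at 4 months, against 10.63, 6.51 and 4.53 at 1 month. Ptprc, the common leukocyte phosphatase, read 7.08, 7.96 and 5.81 at 4 months, against 7.27, 3.78 and 2.18 at 1 month. Of the ND 1-month arrays, replicate 1 was as high as the 4-month arrays and the other two were low. In bulk RNA, fewer cells of a type and less RNA per cell cannot be told apart.

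**Figure D1:**
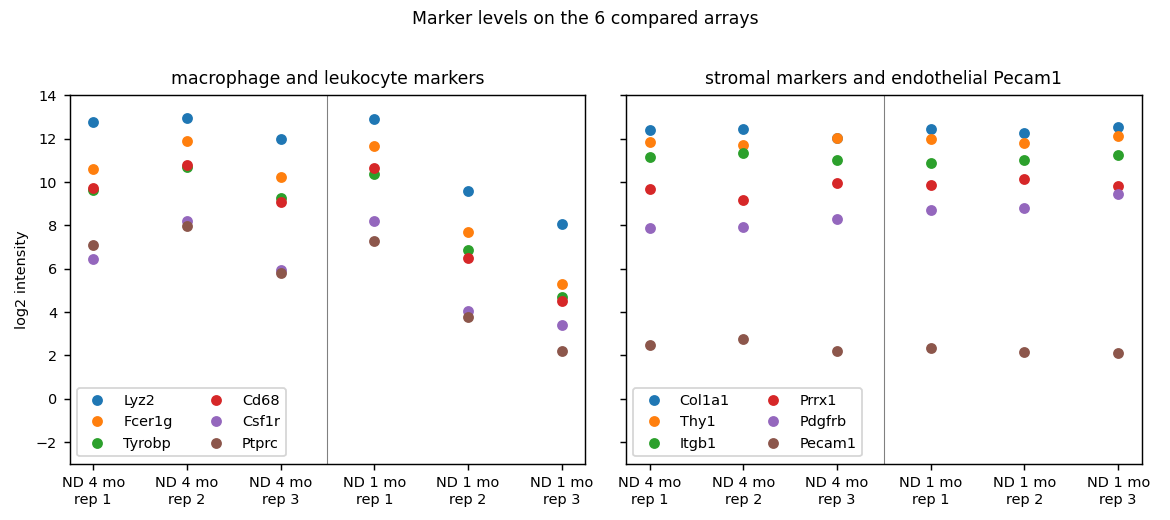
Levels of 6 macrophage and leukocyte markers (left) and of 5 stromal markers with endothelial Pecam1 (right) on each array, as log2 intensity, with the ND 4-month arrays left of the ND 1-month arrays. The stromal markers are well above Pecam1 on all 6 arrays, while Lyz2 reads 12.76, 12.94 and 12.00 in ND at 4 months, against 12.89, 9.60 and 8.07 in ND at 1 month.

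No single gene passed the test between 4 and 1 months on ND: 0 of 21729 probe sets had an adjusted p under 0.05 in limma, which is 0% of those tested, and the lowest adjusted p was 0.125. At an unadjusted p under 0.05 there were 2040 probe sets, 9.39% of those tested, with 604 higher and 1436 lower at 4 months. Lower values thus made up 70.4% of them, and 80.5% with each array centred on its median. Without ND 1-month replicate 1 there were 3123. Among named genes 2.73% were higher and 7.23% lower at that unadjusted level. The arrays of the groups did not overlap for 4.06% of named genes in the higher direction and 9.85% in the lower. With 3 arrays against 3 these shares were 2.88% and 8.98%, and with 3 against 2 they were 18.3% and 20.2%. The median log2 fold change over all named genes was -0.03, with 43.6% of them positive and 56.4% negative. Arrays correlated with each other at a mean of 0.967 within ND at 4 months, 0.954 within ND at 1 month and 0.957 between the groups. Since nothing passed, the genes below are given as values, chosen by rank or from lists, and none of them is a call.

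The lowest moderated t, the difference over its error, belonged to Sema6a and 9 other genes. Sema6a, a transmembrane semaphorin that guides cells and axons (chr18:42237227-42358540, GRCr8), read 3.41, 3.33 and 3.21 in ND at 4 months, against 5.20, 4.66 and 4.81 in ND at 1 month. Its 4-month arrays lay near the filter level of 3.22 and all below the 1-month arrays. The log2 fold change was -1.58 ± 0.23 (SE, n = 3 per group), a linear ratio of 0.335, with an adjusted p of 0.125 in limma. Ephb4, a receptor for the ephrin B2 ligand that acts in vessel and bone cell contacts (chr12:24963174-24988473), read 6.40, 6.30 and 5.84 at 4 months, against 6.95, 6.93 and 7.06 at 1 month. Lama4, a laminin chain of basement membranes (chr20:43946898-44087972), read 8.44, 8.82 and 8.25 at 4 months, against 9.19, 9.36 and 9.69 at 1 month. Neither gene's groups overlapped. The log2 fold changes were -0.80 ± 0.14 for Ephb4 and -0.91 ± 0.16 for Lama4, each with an adjusted p of 0.148 in limma.

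The largest difference among these 10 genes was that of Spon1, a secreted matrix protein with a role in axon growth (chr1:177363526-177662689). Spon1 read 4.27, 5.30 and 4.00 in ND at 4 months, against 7.03, 7.68 and 8.81 in ND at 1 month. The groups did not overlap, and the log2 fold change was -3.32 ± 0.67 (limma adjusted p = 0.290). Fam221a, a gene of little known function, read 4.52, 4.58 and 5.08 at 4 months, against 6.26, 6.92 and 6.68 at 1 month. Runx1t1, a transcriptional corepressor that restrains fat cell formation, read 5.42, 5.95 and 4.89 at 4 months, against 6.80, 7.27 and 6.56 at 1 month. Both were separated by more than a unit between group means. Ccdc126 stood at -0.68 ± 0.11, Farp1, a regulator of the small GTPase Rac, at -0.53 ± 0.10, Nr2f6, an orphan nuclear receptor, at -0.47 ± 0.10 and Cog5, a part of the Golgi tethering complex, at -0.58 ± 0.12. All 10 genes were measured on all 6 arrays.

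Of the 10 genes with the highest moderated t, 7 have no value on ND 1-month replicate 1, the array with high macrophage markers. Cd53, a leukocyte tetraspanin, read 10.20, 10.67 and 9.57 in ND at 4 months, against 5.78 and 3.70 on the other two ND 1-month arrays. C5ar1, the complement C5a receptor, read 9.29, 9.56 and 8.63 at 4 months, against 5.38 and 3.69 there. Mmp12, the macrophage elastase, read 11.73, 8.94 and 9.77 at 4 months, against 5.81 and 4.30. Each stood 4.62 to 5.41 apart in log2 fold change, with the group means resting on the 2 arrays low in macrophage markers. Gpnmb, a lysosomal glycoprotein, Slc28a2, a nucleoside transporter, and Cd93, a phagocyte and endothelial receptor, stood at 2.82 ± 0.64, 4.65 ± 1.12 and 2.91 ± 0.62 on the same footing. With the macrophage list mean of each array as a covariate, Cd53 stood at 1.32 ± 0.49 instead of 5.41 ± 1.22.

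Of the genes at this end 3 were measured on all arrays. Emp2, an epithelial membrane protein that binds integrins (chr10:5866869-5901533), read 6.69, 7.54 and 6.61 in ND at 4 months, against 5.91, 5.82 and 6.04 in ND at 1 month. Shc4, an adaptor of receptor tyrosine kinases, read 5.03, 5.69 and 6.03 at 4 months, against 4.36, 4.27 and 4.39 at 1 month. In both the 1-month arrays lay close together and below every 4-month array, ND 1-month replicate 1 included. Emp2 stood at 1.02 ± 0.20 (adjusted p = 0.227 in limma) and at 0.98 ± 0.22 with the macrophage covariate, and Shc4 stood at 1.25 ± 0.25. Snx10, a sorting nexin needed for osteoclast function, stood at 0.65 ± 0.16, also with no overlap. Btg1, an antiproliferative protein, read 11.71, 12.07 and 11.74 at 4 months, against 11.06 and 10.88 at 1 month, and its 0.87 ± 0.20 stood at 0.40 ± 0.21 with the covariate.

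**Figure D2:**
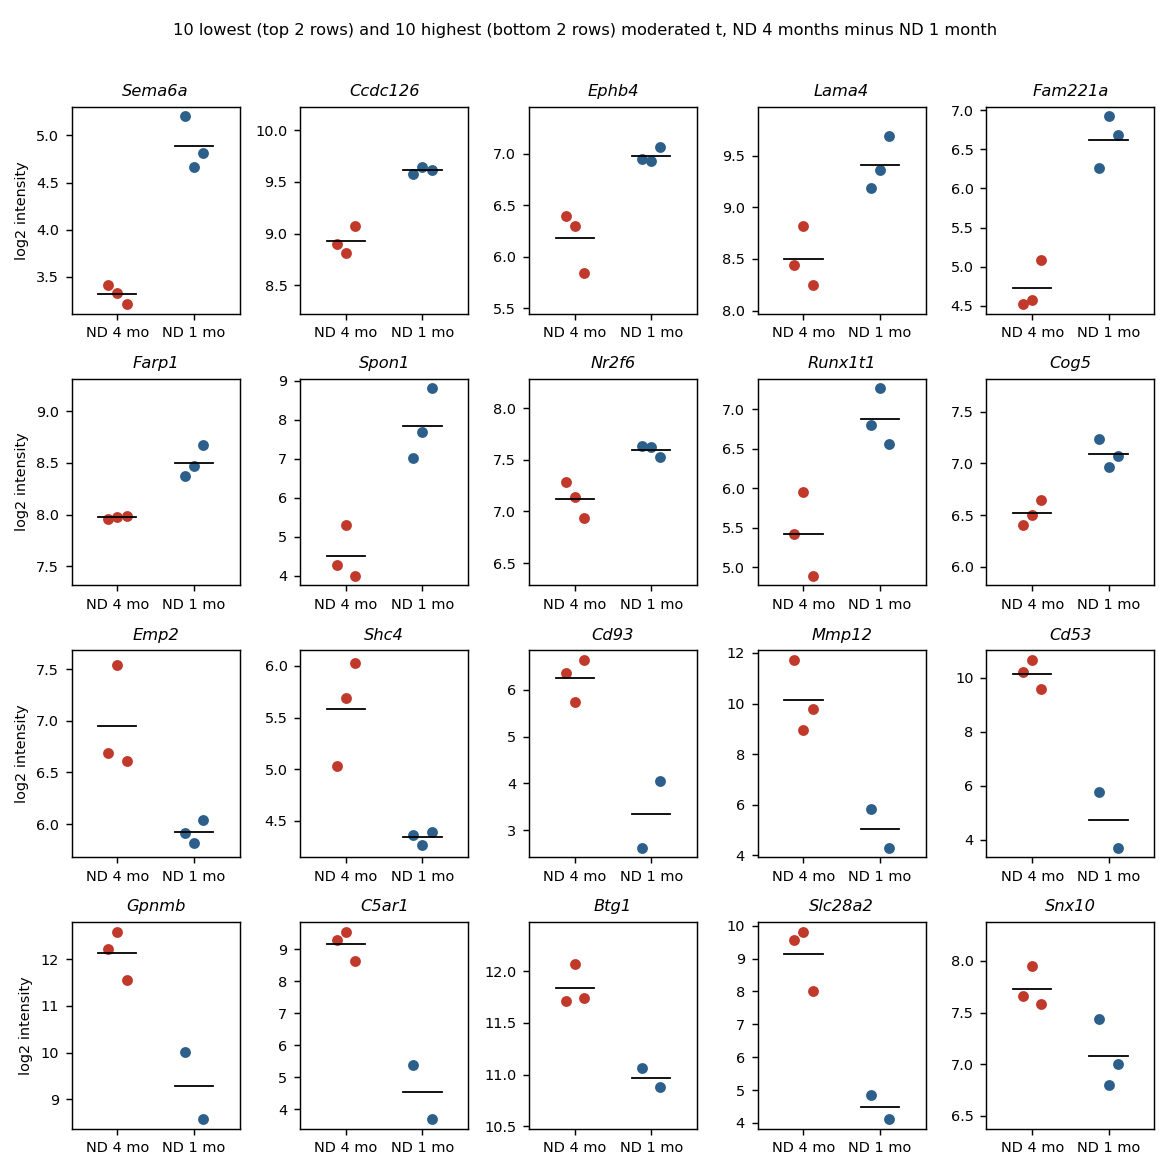
Log2 intensity on each array of the 10 genes with the lowest (top 2 rows) and the 10 with the highest moderated t (bottom 2 rows), ND 4 months left of ND 1 month, with black bars at group means. Each panel spans at least 2 log2 units, the genes were chosen by this difference, and panels with 2 points at 1 month lack a value on replicate 1.

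The HFD arrays did not enter the ND differences, but their spread entered the error behind each t, since 1 model covered all 18 arrays, so the choice of these genes is not independent of them. The 10 lowest genes all had a negative 4-month minus 1-month log2 fold change in HFD, and the 10 highest all had a positive one. Among all named genes 49.7% were negative and 50.3% positive in HFD. At an unadjusted p under 0.05 in the same direction there were 6 of the 10 lowest, against 4.40% of named genes lower in HFD, and 3 of the 10 highest, against 3.43% higher. The HFD arrays did not overlap in 7 of the 10 lowest (8.50% of named genes) and 5 of the 10 highest (8.61%). Of the 100 lowest genes 90 were negative in HFD and of the 100 highest 92 were positive. Of these, 10 lowest and 40 highest genes lack a value on ND 1-month replicate 1. In a fit of the 6 ND arrays alone, added after the data were seen, 3 of these lowest genes were again among the 10 lowest, and 3 of these highest genes among the 10 highest. For the 10 lowest of that fit, a fit of the 6 HFD arrays alone gave 10 negative values, with 8 at an unadjusted p under 0.05 (5.31% of named genes), and 4 of them lack a value on ND 1-month replicate 1. For its 10 highest it gave 10 positive values, with 5 at that level (5.95%), and all 10 lack that array's value. Genes of one cell type are not independent of each other in such counts.

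Sema6a read 3.64, 3.65 and 3.27 in HFD at 4 months, against 4.64, 4.85 and 4.83 in HFD at 1 month. Spon1 read 6.62, 5.75 and 6.52 at 4 months, against 9.75, 6.99 and 9.27 at 1 month on HFD. Ephb4 read 6.31, 6.59 and 6.34 at 4 months, against 6.99, 6.89 and 6.96 at 1 month. In all 3 genes the HFD groups did not overlap, as in ND. Lama4 stood at -0.60 ± 0.16 and Emp2 at 0.68 ± 0.20 in HFD. By contrast Cog5 stood at -0.10 ± 0.12 and Shc4 at 0.25 ± 0.25 in HFD, and Cd53 at 1.21 ± 1.09. In HFD on its own 0 of 21729 probe sets passed in limma, 0% of those tested, with 1721 at an unadjusted p under 0.05, or 7.92%.

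**Figure D3:**
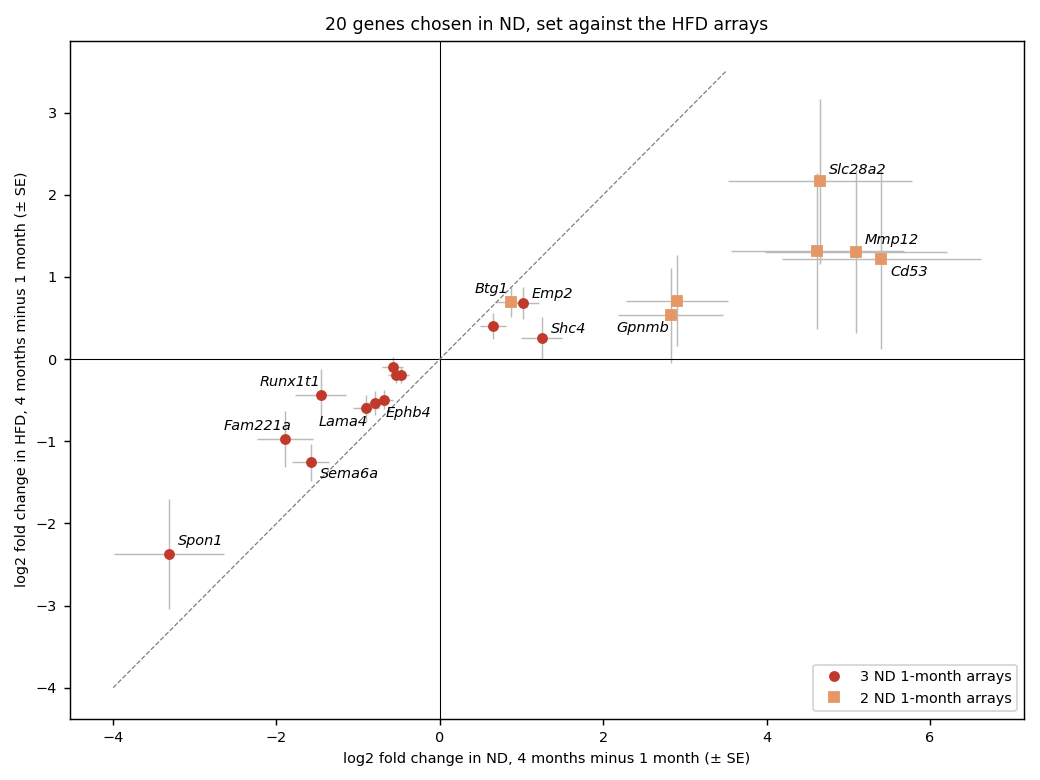
Log2 fold change of 4 months minus 1 month in ND (horizontal, the values used to choose the genes) and in HFD (vertical) for the 20 genes, with SE bars and a dashed line of equality. All 20 points lie in the lower left or upper right of the plot. The 7 squares, which rest on 2 ND 1-month arrays, lie below the line, as Cd53 with 5.41 in ND and 1.21 in HFD.

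The mean of the ND and HFD changes, a contrast added after the data were seen, uses all 12 arrays of these feeding times. In limma 26 probe sets passed, 0.12% of those tested, with 6 higher and 20 lower at 4 months, and they name 13 genes. The 2 higher genes were Emp2 and Btg1. The 11 lower were Sema6a (-1.42 ± 0.16, adjusted p = 0.00745), Ephb4, Ccdc126, Lama4, Septin4, Antxr1, Trim2, Spon1, Fam221a, Ppm1k and Nxn. Septin4, a filament-forming GTPase, read 4.71, 4.91 and 4.33 in ND at 4 months, against 7.38, 6.39 and 6.77 in ND at 1 month. Antxr1, a collagen-binding receptor, read 6.42, 6.59 and 6.76 at 4 months, against 7.25, 7.83 and 7.68 at 1 month. Neither gene's ND groups overlapped. The count of probe sets that passed was 1 without ND 1-month replicate 3, 3 without ND 4-month replicate 1, 14 without ND 1-month replicate 2 and 73 without ND 1-month replicate 1. Among the HFD arrays it was 3 when HFD 4-month replicate 1 was left out, 1 for replicate 2 and 2 for replicate 3. It was 1 when HFD 1-month replicate 1 was left out, 270 for replicate 2 and 1 for replicate 3. It was 5 with the replicate number as a block, 10 with the macrophage covariate, 0 with a 1.5-fold minimum and 1774 with array weights. It was 41 with each array centred on its median and 0 with the shifted column as deposited.

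Whether the change over time differed between the diets was tested directly, and 0 of 21729 probe sets passed, 0% of those tested, with 707 (3.25%) at an unadjusted p under 0.05. Axin2, a WNT target that also restrains the pathway, stood at -0.58 ± 0.14 in ND and at 0.17 ± 0.14 in HFD, a difference of -0.74 ± 0.19 (limma adjusted p = 1.00). Its ND arrays read 4.45, 4.30 and 4.59 at 4 months, against 5.25, 5.12 and 4.71 at 1 month. Chn2, a Rac regulator, stood at 0.17 ± 0.20 in ND and -1.24 ± 0.20 in HFD. Sfi1, a centrosomal protein, stood at -0.54 ± 0.17 in ND and 0.42 ± 0.17 in HFD, while Ranbp17, a nuclear transport receptor, stood at 0.47 ± 0.15 and -0.32 ± 0.15. Sult2b1, a sterol sulfotransferase, stood at 0.26 ± 0.14 in ND and -0.50 ± 0.14 in HFD. These 5 genes lie at the low end of intensity and none passed.

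The 2-month ND arrays lay nearer to those of 1 month for several of the lowest genes. Spon1 averaged 7.84 ± 0.90 (SD, n = 3) at 1 month, 7.84 ± 0.26 at 2 months and 4.53 ± 0.69 at 4 months. Ephb4 averaged 6.98 ± 0.07, 7.01 ± 0.13 and 6.18 ± 0.30 at these times. Sema6a averaged 4.89 ± 0.28, 4.60 ± 0.35 and 3.31 ± 0.10. In these genes the 1-month and 2-month means differed by no more than the larger of their SDs, and the 4-month mean lay below both. Fam221a averaged 6.62 ± 0.33, 6.04 ± 0.55 and 4.72 ± 0.31, and Septin4 6.85 ± 0.50, 5.93 ± 0.31 and 4.65 ± 0.30, with the 2-month mean in between. Between 2 and 1 months 0 probe sets passed (562 at an unadjusted p under 0.05, 2.59%), and between 4 and 2 months 0 passed (1604, 7.38%), in limma. The 4-month and 1-month arrays serve in more than one of these comparisons.

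**Figure D4:**
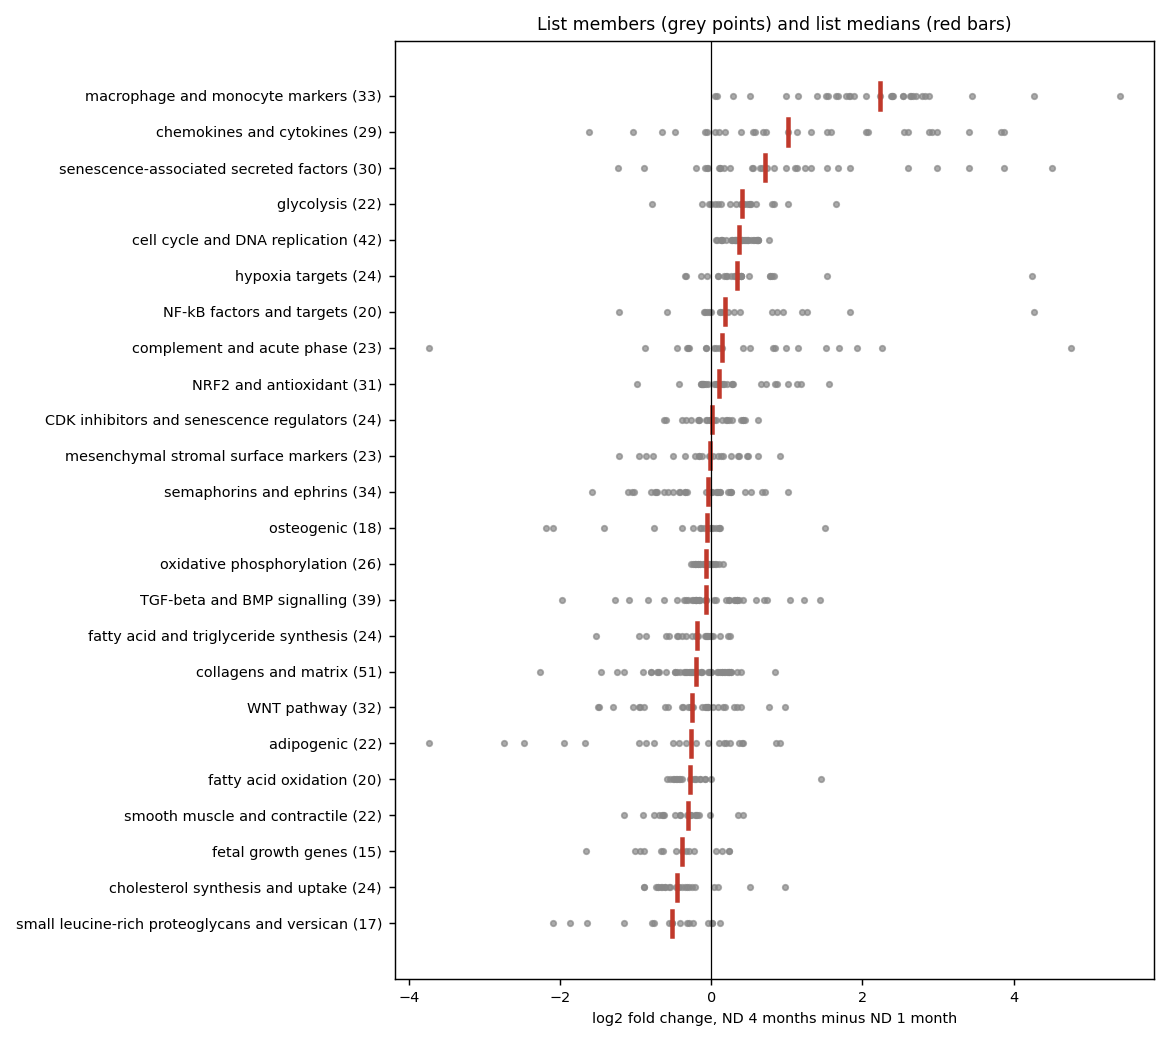
Log2 fold change, ND 4 months minus ND 1 month, of every tested member (grey points) of 24 gene lists, with the list medians (red bars) and the number of tested members in brackets. Macrophage markers lie furthest right with a median of 2.24, and the small leucine-rich proteoglycans furthest left with a median of -0.52.

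The macrophage and monocyte list, with 33 of its 38 genes tested, had 33 positive log2 fold changes and a median of 2.24, and 0 passed. At an unadjusted p under 0.05 there were 10 higher, and 4 did not overlap between groups. Among all named genes these shares were 2.73% and 4.06%. The share with no overlap was 18.3% with 3 arrays against 2, and 2.88% with 3 against 3. Aif1, an actin-binding protein of macrophages, read 7.63, 9.43 and 7.12 in ND at 4 months, against 4.60 and 2.96 at 1 month. Cd14, the endotoxin coreceptor, read 10.32, 10.83 and 10.22 at 4 months, against 8.41 and 7.72. Aif1, Cd14 and Cd53 are among the 4 genes with no overlap, and all lack a value on ND 1-month replicate 1. The mean of the list, centred over all arrays, was 0.29, 1.70 and 0.06 on the 4-month arrays, against 1.45, -1.95 and -3.08 on the 1-month arrays. ND 1-month replicate 1 lay within the range of the 4-month arrays, and the spread at 1 month (SD 2.36) was over the difference of the means, 1.88. Over the 29 members measured on all arrays the median was 1.89. Leaving out ND 1-month replicate 3 gave a median of 1.19, and leaving out replicate 1 gave 3.26. In HFD the list's median over the same interval was 1.15, with 32 positive.

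Chemokines and secreted inflammatory factors stood higher as groups at 4 months, along with the macrophage markers. Of 29 tested chemokines and cytokines 23 were positive, with a median of 1.01. With an unadjusted p under 0.05, 7 were higher and 1 lower, against 2.73% and 7.23% of all named genes. Il1b, a central inflammatory cytokine, read 7.20, 7.20 and 10.16 in ND at 4 months, against 6.92, 4.43 and 3.00 in ND at 1 month. Ccl4, a monocyte-attracting chemokine, read 8.56, 7.97 and 9.74 at 4 months, against 8.14, 5.54 and 3.86 at 1 month. Replicate 1 of the 1-month group again lay near the 4-month arrays. The list mean was 0.58, -0.17 and 1.70 at 4 months, against 0.63, -0.83 and -1.38 at 1 month, which follows the order of the macrophage list within the 1-month arrays but not within the 4-month arrays. At 4 months replicate 2 was the highest array for the macrophage list and the lowest for chemokines. Leaving out ND 4-month replicate 3 gave a median of 0.43 for the chemokines. Il15, a cytokine that stromal cells make for lymphocytes, went the other way, with 6.47, 5.95 and 6.04 at 4 months, against 7.16 and 8.40 at 1 month.

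Of 30 senescence-associated secreted factors 24 were positive, with a median of 0.71 (0.30 without ND 4-month replicate 3 and 1.18 without ND 1-month replicate 1). This list shares members with the chemokine list, Il1b and Cxcl2 among them, so the lists are not independent. Mmp3, a matrix protease, read 6.24, 7.42 and 9.01 in ND at 4 months, against 2.99 and 3.11 in ND at 1 month, and its 4.50 ± 1.78 stood at -0.11 with the macrophage covariate. The plasminogen activator Plat stood at -0.89 ± 0.33 on 2 ND 1-month arrays. Of 24 CDK inhibitors and senescence regulators 12 were positive and 12 negative, with a median of 0.01 and 0 at an unadjusted p under 0.05 in either direction. That median lay between -0.067 and 0.06 when one of the 6 arrays was left out. Cdkn2d, an inhibitor of CDK4 and CDK6, stood at 0.45 ± 0.22, the stress transcription factor Foxo3 at 0.39 ± 0.20 and the stress sensor Gadd45b at -0.60 ± 0.31. The secreted list thus had a positive median while that of the CDK inhibitors and senescence regulators was near 0.

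Among 20 NF-kB factors and targets 13 were positive, with a median of 0.18. Higher at an unadjusted p under 0.05 were 5, against 2.73% of all named genes. The median was 0.34 when ND 4-month replicate 1 was left out and 0.32 for ND 1-month replicate 1. Nfkbia, the inhibitor induced by NF-kB, read 8.11, 7.87 and 8.92 in ND at 4 months, against 7.92, 6.75 and 6.63 in ND at 1 month. Tnfaip3, another feedback inhibitor, read 6.82, 7.03 and 8.10 at 4 months, against 6.78, 5.95 and 5.44 at 1 month. Bcl2a1, a survival factor of blood cells, stood at 4.27 ± 1.14, and Ptgs2, the inducible prostaglandin synthase, at 1.84 ± 0.58, both on 2 ND 1-month arrays. Of 23 complement and acute phase genes 15 were positive, with a median of 0.15 (-0.35 with the macrophage covariate), and between 0.00 and 0.43 when one of the 6 arrays was left out. C3, the central complement protein, read 8.36, 8.69 and 10.58 at 4 months, against 5.25 and 3.67, and Cp, the copper carrier ceruloplasmin, 7.85, 7.89 and 7.36, against 6.42 and 5.59. The part of macrophage RNA in these lists was not tested beyond the covariate.

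Contractile genes were lower at 4 months as a group in both diets. Of 22 smooth muscle and contractile genes, all tested, 20 were negative in ND with a median of -0.31. Lower at an unadjusted p under 0.05 were 7, against 7.23% of all named genes. Lower with no overlap were 6, against 9.85%, and of these Tagln lacks a value on ND 1-month replicate 1. Acta2, smooth muscle actin, read 10.86, 11.25 and 10.53 in ND at 4 months, against 11.18, 11.47 and 12.27 in ND at 1 month. Smtn, which binds actin stress fibres, read 8.47, 8.39 and 8.04 at 4 months, against 8.79, 8.99 and 9.19 at 1 month. Acta2 overlapped between the groups and Smtn did not, at -0.69 ± 0.18. Myl9, a myosin light chain, read 11.04, 11.36 and 11.09 at 4 months, against 11.55, 11.77 and 12.13 at 1 month. Lmod1, an actin nucleator of smooth muscle, stood at -0.91 ± 0.37. ND 1-month replicate 3 had the highest list mean, 0.62, against -0.17 and 0.06 on the other two, and without it the median was -0.16. In HFD 21 of 22 were negative with a median of -0.43. There 10 were lower at an unadjusted p under 0.05, against 4.40% of all named genes.

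Mrtfa, a coactivator that drives contractile genes when actin polymerises, was named after its values were seen. It read 7.46, 7.19 and 6.99 in ND at 4 months, against 7.67, 7.83 and 7.78 in ND at 1 month, with no overlap and a log2 fold change of -0.55 ± 0.12. In HFD it stood at -0.27. Pdgfrb, the platelet-derived growth factor receptor of stromal cells, read 7.88, 7.92 and 8.30 at 4 months, against 8.72, 8.80 and 9.45 at 1 month in ND, also with no overlap. Of 23 mesenchymal surface markers 11 were positive, with a median of -0.01 that lay between -0.09 and 0.04 when one of the 6 arrays was left out. Itgav, an integrin chain, stood at 0.47 ± 0.14, Ly6e at -0.51 ± 0.19 and Mcam, a perivascular adhesion molecule, at -0.87 ± 0.42.

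Matrix genes were more often lower than higher. Of 17 small leucine-rich proteoglycans and related proteoglycans 14 were negative, with a median of -0.52. Lower at an unadjusted p under 0.05 were 3, against 7.23% of all named genes. Lum, lumican, which spaces collagen fibrils, read 10.91, 10.58 and 11.45 in ND at 4 months, against 11.87 and 11.65 in ND at 1 month. Sdc2, a cell surface heparan sulfate proteoglycan, read 10.35, 9.83 and 9.91 at 4 months, against 10.34, 10.85 and 11.18 at 1 month. Lum did not overlap, and Sdc2 did by a single 4-month array at the level of one 1-month array. In HFD the list's median was -0.85 with 14 negative. Of 51 collagens and matrix genes 34 were negative, with a median of -0.21 (-0.03 without ND 4-month replicate 3, -0.03 without ND 1-month replicate 3 and -0.31 without ND 1-month replicate 1). Fbln5, an elastic fibre protein, stood at -2.27 ± 0.75 and Lox, which crosslinks collagen, at 0.39 ± 0.12, both on 2 ND 1-month arrays. Fn1, fibronectin, stood at 0.23 ± 0.08 on 3 ND 1-month arrays.

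WNT pathway members were lower for 23 of 32 tested genes, with a median of -0.25, against 56.4% negative among all named genes. At an unadjusted p under 0.05 there were 8 lower and 0 higher, against 7.23% and 2.73% of all named genes. In the lower direction 8 were apart, against 9.85%. Dkk3, a secreted Dickkopf family member, read 8.58, 8.77 and 7.70 in ND at 4 months, against 9.54, 9.51 and 10.47 in ND at 1 month. Sfrp1, a secreted WNT antagonist, read 9.12, 9.61 and 8.91 at 4 months, against 10.08, 11.25 and 10.21 at 1 month. The receptor Fzd2 read 7.40, 7.70 and 6.70 at 4 months, against 7.84, 8.12 and 8.68 at 1 month. Receptor, antagonists and the target Axin2 all lay lower with no overlap between the groups. With the macrophage covariate the median was -0.07, with 20 negative. It was -0.17 when ND 4-month replicate 2 was left out and -0.16 for ND 1-month replicate 3. Of 39 TGF-beta and BMP genes 21 were negative, with a median of -0.08, which lay between -0.12 and 0.10 when one of the 6 arrays was left out. Smad3, a signal transducer of TGF-beta, read 7.42, 7.20 and 6.35 at 4 months, against 8.16, 8.32 and 7.77 at 1 month. Smad2 stood at -0.36 ± 0.11 on 2 ND 1-month arrays.

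The list of semaphorins and ephrins, the families of Sema6a and Ephb4, also held Emp2, which belongs to neither. It showed no common lean: 19 of 34 were negative, with a median of -0.04 that lay between -0.18 and -0.04 when 1 array was left out. At an unadjusted p under 0.05 there were 6 lower and 1 higher, against 7.23% and 2.73% of all named genes. The 1 higher gene was Emp2. Sema3a, a secreted repellent made by bone cells, read 2.92, 2.93 and 2.70 in ND at 4 months, against 4.49, 4.02 and 3.18 in ND at 1 month, and stood at 0.05 in HFD. Jag1, a Notch ligand of the marrow niche, read 6.62, 6.93 and 6.63 at 4 months, against 8.28 and 9.66 at 1 month.

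Cholesterol synthesis genes were lower at 4 months on ND for 20 of 24 tested members, with a median of -0.45. The unadjusted p lay under 0.05 for 5 lower members, against 7.23% of all named genes. Lower with no overlap were 11, against 9.85%. Among these 11, Fdps, Fdft1, Cyp51, Dhcr7 and Msmo1 lack a value on ND 1-month replicate 1. For named genes that share was 20.2% with 3 arrays against 2, and 8.98% with 3 against 3. Msmo1, the methyl oxidase of sterol C4 demethylation (chr16:29747113-29764360), read 10.20, 9.95 and 9.77 in ND at 4 months, against 10.99 and 10.74 in ND at 1 month. Nsdhl, which acts in the same demethylation (chrX:155817301-155848224), read 8.97, 8.71 and 8.52 at 4 months, against 9.29, 9.81 and 9.23 at 1 month. Hsd17b7, the ketone reductase of that step (chr13:84702875-84722810), read 7.42, 6.95 and 7.25 at 4 months, against 7.90, 8.31 and 7.54 at 1 month. All 3 enzymes of this demethylation were below every measured 1-month array. Acat2, which makes acetoacetyl-CoA, read 8.72, 8.61 and 8.34 at 4 months, against 9.38, 9.55 and 8.96 at 1 month. The 4 positive members were the sterol carrier Stard4, the SREBP retention protein Insig2 and the efflux transporters Abca1 and Abcg1, named after their signs were seen. Leaving out ND 1-month replicate 3 gave a median of -0.66, and leaving out replicate 2 gave -0.29. In HFD it was -0.30 with 18 negative. With the macrophage covariate it was -0.84 with all 24 negative.

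The promoters of these 3 demethylation enzymes are shown because the genes act in one enzyme complex and all lay lower at 4 months. Sterol genes are known to be driven by SREBP2 together with NF-Y, a factor that binds CCAAT boxes. Each window runs from 250 bases before an annotated start of transcription to 50 after it, 5′ to 3′ on the strand of the gene, from RefSeq on GRCr8. For Nsdhl and Hsd17b7 that start lies inside the gene coordinates given above and not at their end. Capitals mark CCAAT or its reverse ATTGG, and TCACNNCAC or its reverse GTGNNGTGA, a loose form of the sterol element.
Msmo1 (chr16:29746863-29747162, plus strand): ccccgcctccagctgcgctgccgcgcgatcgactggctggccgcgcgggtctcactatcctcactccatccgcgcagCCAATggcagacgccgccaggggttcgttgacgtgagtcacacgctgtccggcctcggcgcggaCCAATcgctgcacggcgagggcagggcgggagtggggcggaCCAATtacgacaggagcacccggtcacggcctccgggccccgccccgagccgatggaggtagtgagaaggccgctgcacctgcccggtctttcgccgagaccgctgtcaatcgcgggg
Nsdhl (chrX:155817110-155817409, plus strand): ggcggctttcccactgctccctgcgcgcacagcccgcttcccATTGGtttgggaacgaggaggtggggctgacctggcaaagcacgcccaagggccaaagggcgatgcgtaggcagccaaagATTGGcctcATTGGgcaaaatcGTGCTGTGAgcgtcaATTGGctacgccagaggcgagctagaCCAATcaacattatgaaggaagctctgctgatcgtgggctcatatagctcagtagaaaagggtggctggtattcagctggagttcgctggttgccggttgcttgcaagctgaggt
Hsd17b7 (chr13:84722705-84723004, minus strand): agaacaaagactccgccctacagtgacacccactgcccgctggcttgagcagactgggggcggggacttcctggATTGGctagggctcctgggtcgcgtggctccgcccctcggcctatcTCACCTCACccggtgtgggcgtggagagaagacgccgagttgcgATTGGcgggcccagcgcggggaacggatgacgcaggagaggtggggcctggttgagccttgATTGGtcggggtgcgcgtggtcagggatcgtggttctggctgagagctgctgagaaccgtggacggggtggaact
The CCAAT letters occur 3 times in the window of Msmo1, 5 times in that of Nsdhl and 3 times in that of Hsd17b7. Of the 24 tested list genes 19 had a window, and 14 of these held CCAAT on either strand, against 37.7% of 27457 windows. The looser sterol letters occurred in Nsdhl and Hsd17b7 among the 19, against 3.78% of all windows. The stricter TCACNCCAC occurred in 0 of the 19 and in 1.13% of all. The motifs were chosen after the list's values were seen, and a match of letters is a description.

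**Figure D5:**
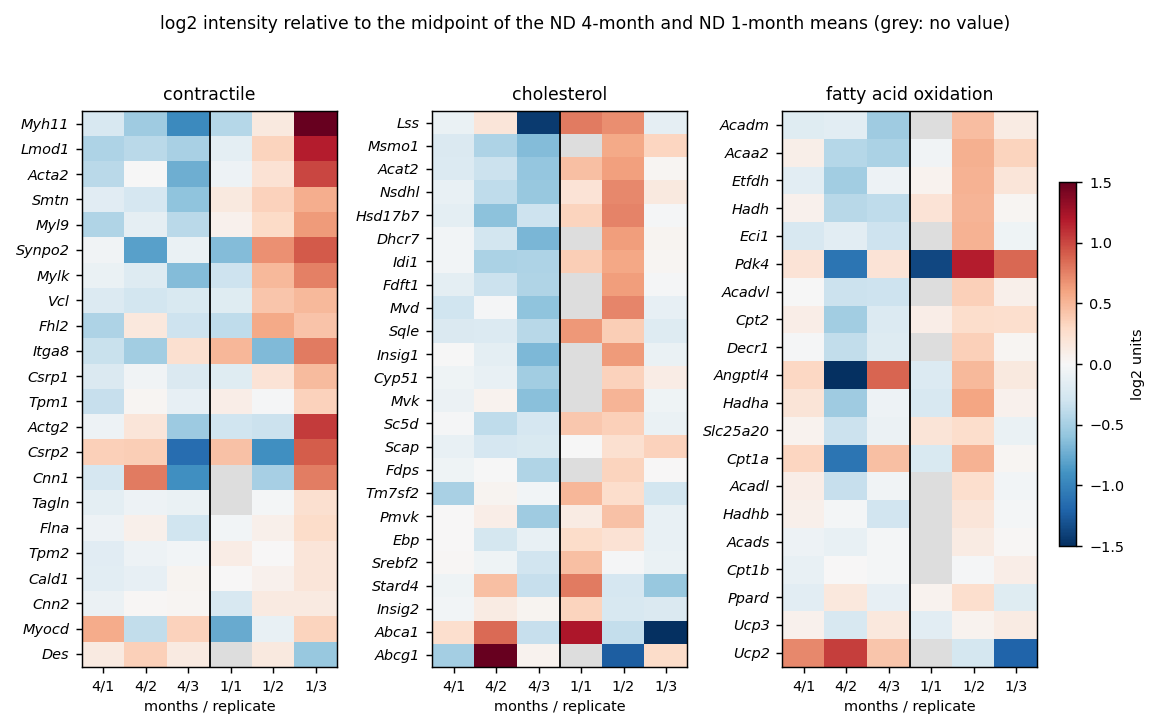
Log2 intensity of each tested contractile, cholesterol and fatty acid oxidation gene on the ND 4-month arrays (left of the line, labelled 4/1 to 4/3) and the ND 1-month arrays (1/1 to 1/3), relative to the midpoint of the group means, with colours capped at 1.5 log2 units and grey for no value. Contractile genes are highest on ND 1-month replicate 3, and cholesterol genes are highest on replicates 1 and 2 of that group.

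Fatty acid genes had a like direction in ND. Of 24 fatty acid and triglyceride synthesis genes 20 were negative, with a median of -0.19 (-0.12 without ND 1-month replicate 2). At an unadjusted p under 0.05 there were 4 lower, against 7.23% of all named genes. Lpin1, a phosphatidate phosphatase of triglyceride synthesis, read 5.42, 5.50 and 4.71 in ND at 4 months, against 6.36, 6.87 and 6.98 in ND at 1 month. Fasn, fatty acid synthase, stood at -0.45 ± 0.16 in ND and -0.55 in HFD, and Me1, which supplies NADPH, at -0.60 ± 0.23 and -0.72. These values lie close together in the diets. Of 20 fatty acid oxidation genes 19 were negative in ND, with a median of -0.28. The unadjusted p lay under 0.05 for 5 lower genes, against 7.23% of all named genes. Lower with no overlap were 6, against 9.85%. Among these 6, only Etfdh has all ND 1-month values, while Eci1, Acadm, Decr1, Acads and Acadvl lack replicate 1. Named genes were apart in this direction in 20.2% of cases with 3 arrays against 2, and in 8.98% with 3 against 3. The median was -0.45 when ND 4-month replicate 1 was left out, -0.15 for ND 4-month replicate 2 and -0.13 for ND 1-month replicate 2. Acadm, the medium-chain acyl-CoA dehydrogenase, read 8.12, 8.15 and 7.76 at 4 months, against 8.76 and 8.42 at 1 month. Hadh, a later step of beta oxidation, read 8.60, 8.12 and 8.17 at 4 months, against 8.74, 9.05 and 8.57 at 1 month, and Etfdh, which passes the electrons on, stood at -0.51 ± 0.16. Ucp2, an uncoupling protein, was the positive one, at 1.46 ± 0.49 and at -0.10 with the macrophage covariate, both on 2 ND 1-month arrays. In HFD the oxidation list had 13 positive of 20 and a median of 0.09, and the difference between the diets was tested per gene only, with none passing.

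Fat cell genes varied widely between the 1-month cultures. Of 22 adipogenic genes 13 were negative, against 56.4% of all named genes, with a median of -0.27. Lower at an unadjusted p under 0.05 were 2, against 7.23% of all named genes. Lower with no overlap were 7, against 9.85%. Among these 7, Fabp4 and Zfp423 lack a value on ND 1-month replicate 1. For named genes that share was 20.2% with 3 arrays against 2, and 8.98% with 3 against 3. The median was -0.095 when ND 4-month replicate 3 was left out, -0.15 for ND 1-month replicate 3 and -0.42 for ND 1-month replicate 1. Cfd, adipsin, read 5.08, 7.62 and 4.32 in ND at 4 months, against 7.98, 8.89 and 11.36 in ND at 1 month, a log2 fold change of -3.74 ± 1.05. Adipoq, adiponectin, read 2.55, 2.91 and 2.90 at 4 months, against 3.16, 4.03 and 7.03 at 1 month, and Pnpla2, a triglyceride lipase, stood at -0.76 ± 0.29. ND 1-month replicate 3 was the highest array for all 3 genes, and without it Adipoq stood at -0.81 and Cfd at -2.76. Car3, a carbonic anhydrase abundant in fat cells and named after its values were seen, read 7.29, 4.02 and 7.40 at 4 months, against 11.20 and 11.56 at 1 month. Its log2 fold change was -5.14 ± 1.42 in ND and -4.43 ± 1.27 in HFD, where 6.87 on one 1-month array lay near the 4-month arrays at 4.43, 4.98 and 5.80.

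Bone and fetal growth genes included single large values. Of 18 osteogenic genes 12 were negative, with a median of -0.06 that lay between -0.17 and 0.04 when one of the 6 arrays was left out. Spp1, osteopontin, which macrophages make as well, read 12.68, 11.97 and 12.03 in ND at 4 months, against 10.97 and 10.49 in ND at 1 month. Mgp, an inhibitor of calcification, read 8.40, 5.87 and 10.81 at 4 months, against 10.44 and 10.67. The first did not overlap and the second did, with a spread at 4 months (SD 2.47) over the difference of -2.20. Of 15 fetal growth genes 11 were negative, with a median of -0.39 (0.00 with the macrophage covariate, -0.61 without ND 1-month replicate 1 and -0.17 without ND 1-month replicate 2). Igf2, the fetal growth factor, read 4.86, 4.41 and 4.48 at 4 months, against 6.92 and 5.55 at 1 month, and stood at -2.00 in HFD. H19, its imprinted neighbour, stood at -0.89 ± 0.45, and Nnat, neuronatin, at -1.02 ± 0.48. Ghr, the growth hormone receptor, read 4.27, 3.43 and 4.48 at 4 months, against 4.14, 7.05 and 7.79 at 1 month, with replicate 1 of the younger group among the 4-month values.

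Cell cycle genes were positive for all 42 tested members, with a median of 0.37, and yet 0 had an unadjusted p under 0.05 and 0 were apart. The list mean was 0.93, -0.59 and 1.28 on the ND 4-month arrays, against 0.21, 0.33 and -0.05 on the ND 1-month arrays. Replicate 2 at 4 months was the lowest of the 6 arrays while the other two were the highest. The median was 0.16 when ND 4-month replicate 1 was left out, 0.95 for replicate 2 and 0.00 for replicate 3. Pcna, the replication clamp, read 10.22, 9.67 and 10.44 at 4 months, against 9.73 and 9.68 at 1 month. Cdk2, a kinase of DNA replication, stood at 0.62 ± 0.30, and in HFD the list's median was -0.10.

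Glycolysis and hypoxia genes stood higher at 4 months, with 19 of 22 and 20 of 24 positive and medians of 0.41 and 0.34. Slc16a1, a lactate transporter, read 8.54, 8.70 and 8.93 in ND at 4 months, against 8.34, 8.41 and 7.84 in ND at 1 month. Egln3, an oxygen sensor that hypoxia induces, read 5.49, 6.13 and 9.11 at 4 months, against 2.88 and 2.46, while Ldhb, a lactate dehydrogenase chain, stood at -0.78 ± 0.26. The glycolysis list mean was 0.11, 0.34 and 0.23 at 4 months, against 0.52, -0.27 and -0.53 at 1 month, in the order of the macrophage list at 1 month. Without ND 1-month replicate 3 the medians were 0.23 and 0.17, and the hypoxia median was 0.63 without ND 1-month replicate 1. With the macrophage covariate both medians were -0.14, with 3 and 6 positive. Of 26 oxidative phosphorylation genes 20 were negative, with a median of -0.07, which lay between -0.12 and -0.03 when one of the 6 arrays was left out. Of 31 NRF2 and antioxidant genes 20 were positive, with a median of 0.10. Higher at an unadjusted p under 0.05 were 4, against 2.73% of all named genes. The median was -0.008 when ND 1-month replicate 3 was left out, 0.04 for ND 4-month replicate 1 and 0.20 for ND 4-month replicate 3. Slc7a11, the cystine transporter, read 7.36, 7.40 and 7.13 at 4 months, against 5.91, 5.27 and 6.04 at 1 month. Nqo1, a quinone reductase, read 10.35, 10.60 and 10.22 at 4 months, against 8.99, 10.15 and 8.64 at 1 month. Neither gene overlapped between the groups, ND 1-month replicate 1 included. Gpx1, a glutathione peroxidase, stood at 0.73 ± 0.20 in ND and -0.04 in HFD.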

How the data were processed

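Per the submitters' processing notes, the authors summarised the arrays with RMA, version not given, and the deposited values are linear probe set intensity values. Their log2 was used without an offset. For ND 1-month replicate 1 the column was moved down by its 1343 trailing empty cells, and its correlation with the average array was then 0.990, against 0.0909 before. Of 31099 probe sets, 57 controls and the dimmest 30% of the rest by mean log2 (3.22 or less) were left out. Gene symbols came from the platform annotation (20832 probe sets with 1 symbol, 436 with several, 9831 with none), updated through RefSeq GRCr8 gene IDs, which held 20764 of the probe sets' IDs.

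A model with 1 mean per group over all 18 arrays was fitted in limma 3.58.1 (R 4.3.3) with 12 residual and 2.43 prior degrees of freedom, two-sided, with p adjusted over the 21729 tested probe sets. The procedure was tested on simulated data with known changes. Alternatives covered the filter, normalization, variance model, array weights, arrays in the fit, replicate block, probe sets, offset, a minimum change, the macrophage list mean as a covariate and leaving out each ND 4-month and ND 1-month array. Chosen after seeing the data were the column as deposited, the fit of 5 arrays, the mean over both diets, the covariate for list medians, the separate fits of ND and HFD arrays and leaving out each HFD array. Named genes were the 10 highest and 10 lowest moderated t, up to 4 members by absolute t of each described list, up to 6 genes of lowest adjusted p in the diet difference (LOC102549828 among them is not described), those passing a contrast, and the listed cell type markers. Car3, Mrtfa, Septin4 and Antxr1 were added after their values were seen. Members, lists and tests were chosen with earlier results of these data known. A permutation test of list means over arrays had been planned and was not run, so lists are described by counts and medians.

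Replicate numbers were checked for pairing: deviations of same-numbered ND arrays from their group means correlated at -0.279, -0.217 and 0.0222, so the numbers were not treated as pairs. Precision is limited by having 3 arrays a group, and p-values measure the spread between arrays, which the sources describe only as 3 per group.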

Additional observations from a re-analysis of the deposited data

How the results depend on the processing

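The count of probe sets that passed between ND 4 months and ND 1 month was 0 in every alternative except 1: with only the other 5 compared arrays, ND 1-month replicate 1 left out, 2 passed, both higher (Fcgr2b at 5.86 and Rgs1 at 3.42, adjusted p = 0.0218 in limma; added after seeing the data). With the replicate number as a block 0 passed, with a lowest adjusted p of 0.0981 and 1972 probe sets at an unadjusted p under 0.05, and over all alternatives that lowest adjusted p ran from 0.0218 to 1. The block changed no list median beyond the spread between arrays. At an unadjusted p under 0.05 there were 2040 as reported, 3176 with array weights, 3123 without ND 1-month replicate 1, 1300 with only the 6 compared arrays and 133 with a 1.5-fold minimum. Lower probe sets at that unadjusted level were 70.4% in the model as reported and 80.5% with median centring, where the median of all probe sets was -0.06 (-0.03 as reported). In HFD, array weights gave 434 (172 higher, 262 lower), and between ND 4 and ND 2 months 20. Leaving out 1 of the ND 4-month, ND 1-month and HFD arrays gave 0 to 2 in HFD and 0 to 1 between ND 4 and ND 2 months. The HFD arrays were left out for the counts only, as an alternative added after seeing the data, and no ND 2-month array was left out. The mean over both diets gave 41 with median centring, 1774 with array weights, 5 with the replicate block, 10 with the macrophage covariate, 0 with a 1.5-fold minimum and 0 with the column as deposited, and 1 to 270 when 1 of the 12 arrays was left out. Among list medians, for which 1 of the 6 compared ND arrays was left out, the covariate gave -0.841 for cholesterol, -0.138 for glycolysis, -0.138 for hypoxia and -0.14 for semaphorins, and a filter on the dimmest 50% gave -0.17 for semaphorins. Leaving out 1 array gave -0.177 to -0.041 for semaphorins and -0.117 to 0.098 for TGF-beta and BMP. Mmp3 stood at -0.11 and Ucp2 at -0.104 with the covariate, and Chn2 at -0.054 with array weights and from -0.042 to 0.33 when 1 array was left out. The cause of these moves was not tested. The other 590 recomputed values were counts equal to or within 1.5-fold of the reported count, or list values that moved by less than the spread between arrays. The other 1937 values, of single genes, kept their sign and an adjusted p of at least 0.05 in limma. No gene passed in the reported model, and the size of a gene's change was not compared, so this says little about stability. Cd53 at 1.32 instead of 5.41 and Btg1 at 0.40 instead of 0.87 with the covariate are among the 1937. Genes near the filter level, Sema6a at 4 months among them, lie where intensity carries little signal.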
